A study of Mus musculus with 24 samples.

Results

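Arginase and polyamine metabolism was followed through 10 genes in mouse dorsal root ganglia (DRGs) after a lesion of the sciatic nerve. They were *Arg1*, *Arg2*, *Ass1*, *Nos1*, *Odc1*, *Oaz1*, *Amd1*, *Srm*, *Sms* and *Sat1*. All 10 were found in the gene name column of the arrays, on 17 of 41174 non-control probes and under 10 of 27398 gene names. The arrays were Agilent 4x44K whole mouse genome arrays, on which 60-base probes report transcript levels as fluorescence intensities.

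All mice were adult male C57BL/6J. *Nfil3* knockout (KO) mice carried a germline null allele of *Nfil3*, a bZIP transcriptional repressor, made by crossing a floxed line with mice that express Cre under a CMV promoter, so that every cell type lacks the gene, and the wildtype (WT) mice were their littermates. The nerve was cut and its ends were joined again, and L4 and L5 DRGs were taken 2 or 5 days later (day 2, day 5). Control DRGs came from the non-injured side, and no label says which mouse gave which sample. This gave 6 groups of 4 samples (WT control, WT day 2, WT day 5, KO control, KO day 2 and KO day 5), which the methods call independent replicates. The labels name the tissue DRG neurons, but whole ganglia were dissected, and markers of satellite glia, Schwann cells and macrophages were measured beside those of neurons.

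Arginases split arginine into urea and ornithine, and *Arg1* encodes the cytosolic and *Arg2* the mitochondrial form. Ornithine decarboxylase makes putrescine from ornithine, and spermidine synthase and spermine synthase then add aminopropyl groups, which come from decarboxylated S-adenosylmethionine, to give spermidine and spermine. Polyamines bind nucleic acids and support translation and cell growth, and in sensory and other neurons arginase and polyamines are known for promoting neurite outgrowth. Nitric oxide synthases use the same arginine, and argininosuccinate synthase rebuilds it from citrulline.

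The 24 samples lay on 12 arrays of 3 slides, with a different sample in each colour channel, and between 54.5% and 72.3% of probes were well above background in a sample. No spot was saturated, and samples of the same group correlated at 0.952 to 0.975 over all probes. *Nfil3* was at 8.44 to 11.09 (log2 intensity) in WT and at 2.82 to 7.59 in KO samples, and the injury marker *Atf3* was at 7.25 to 9.98 in controls and at 12.94 to 14.10 in lesion samples. The highest KO value, 7.59, belongs to the sample labelled KO control replicate 4. Its title calls it a control although its day field reads 5, and the title was followed. In addition, 4 of the 8 controls share an array with a lesion sample. What changed without these samples is given beside the results.

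Levels are log2 intensities after background correction and quantile normalization, so a difference of 1 is a doubling. They compare samples for the same probe and not one gene with another. Where a gene has 2 probes, the brighter stands for it. Changes are averaged over WT and KO unless stated, with the standard error (SE) of the limma fit, and p-values are adjusted over all 41174 probes with a threshold of 0.05. Whether samples overlap within a genotype is given as a description. Its share over all genes was not counted, and it is not a test of genotype.

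The lesion changed 7 of the 10 genes (limma F test over day 2 and day 5), against 26.2% of all genes. Here and below, shares of all genes count all 27398 gene names, also those not above background. They are therefore not matched to the listed genes for level. The 10 genes and the lists were also chosen with earlier results of these data known, so these counts are not a test of the pathway. At day 2, 4 genes were higher (*Arg1*, *Arg2*, *Odc1* and *Sms*) and 2 lower (*Ass1* and *Nos1*), 6 in all against 22.1% of all genes, where 9.48% of all genes were called higher and 12.7% lower. At day 5, *Sat1* joined the higher genes, which gave 5 higher and 2 lower, 7 in all against 23.2% of all genes, with 10.2% higher and 13% lower. With the 2 probes of a gene averaged in place of the brighter one, 5 genes were called at day 2 (3 higher, without *Sms*) and 5 at day 5 (3 higher, without *Sms* and *Sat1*). The median change of the 10 genes was 0.05 at day 2 and 0.19 at day 5, against -0.02 and -0.03 over all genes. *Oaz1*, *Amd1* and *Srm* did not pass the test at either day.

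**Figure D1:**
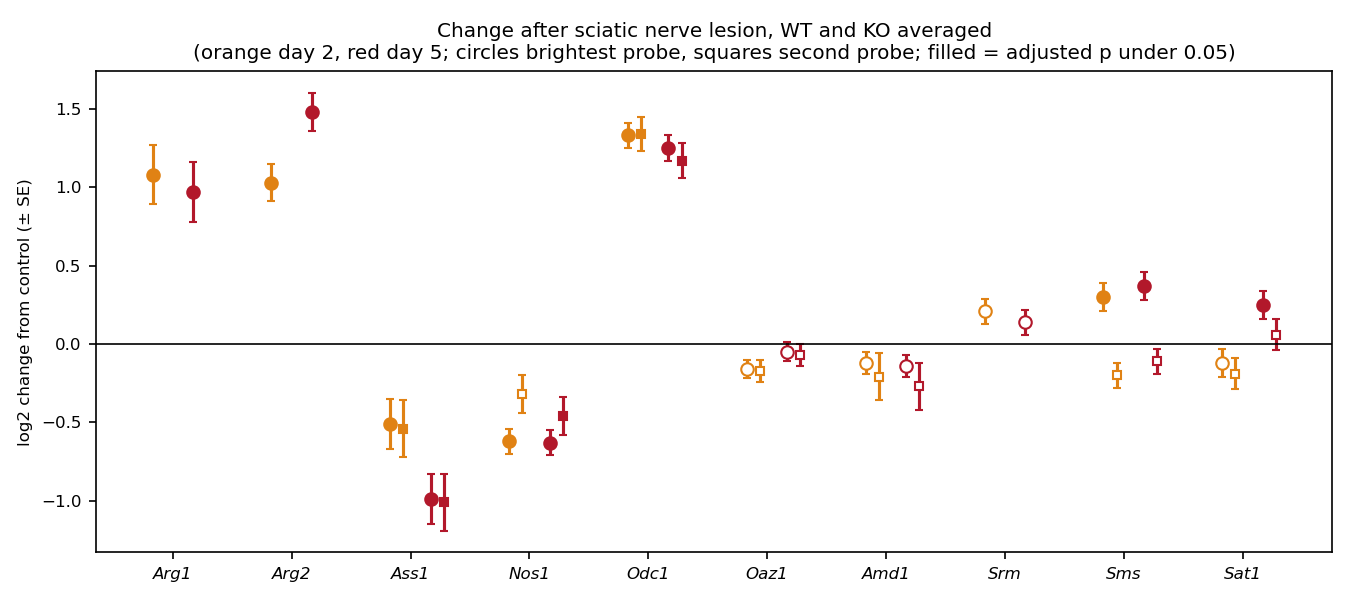
Log2 change from control at day 2 (orange) and day 5 (red) for the 10 genes, averaged over WT and KO, with bars of 1 SE. Circles are the brightest probe, squares the second probe, and filled symbols passed the limma threshold. *Odc1* and *Arg2* lie highest and *Ass1* lowest, and the second *Sms* probe lies below 0 while the first lies above it.

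Of the steps that make ornithine, *Arg1* was measured by 1 probe and *Arg2* by 1 probe. Both probes lie within the coding sequence and are shown here because the arginase results rest on a single probe each. In the array annotation (mm9) the *Arg1* probe is at chr10:24636194-24636253 and the *Arg2* probe at chr12:80252972-80253031, and no base is set in capitals.
*Arg1* probe: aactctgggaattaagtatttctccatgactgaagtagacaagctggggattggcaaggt
*Arg2* probe: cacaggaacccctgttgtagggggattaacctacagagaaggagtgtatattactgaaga

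*Arg1* in WT was at 3.79, 4.64, 4.38 and 4.15 in controls, at 5.16, 5.20, 4.79 and 5.39 at day 2, and at 5.19, 4.84, 5.23 and 4.52 at day 5. In KO mice *Arg1* was at 4.35, 4.65, 3.83 and 3.62 in controls, at 6.00, 5.43, 4.64 and 5.45 at day 2, and at 5.23, 5.34, 5.60 and 5.20 at day 5. Every WT day 2 and KO day 5 sample lay above all controls of its genotype, while WT day 5 and KO day 2 each had 1 sample within the range of the controls. *Arg1* rose by 1.08 ± 0.19 at day 2 and by 0.97 ± 0.19 at day 5, for limma adjusted p of 2.29e-04 and 5.42e-04, and day 5 minus day 2 was -0.11 ± 0.19 (adjusted p = 0.842). Within the genotypes the *Arg1* change passed in WT at day 2 (0.90 ± 0.26, limma adjusted p = 0.0325) and in KO at day 2 and day 5 (1.27 ± 0.26 and 1.23 ± 0.26, adjusted p = 0.00309 and 0.00345), whereas WT day 5 gave 0.71 ± 0.26 (adjusted p = 0.0873). The difference between the genotypes' *Arg1* responses was 0.37 ± 0.37 at day 2 and 0.52 ± 0.37 at day 5, with 95% intervals of -0.41 to 1.14 and -0.26 to 1.29.

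The *Arg1* probe was dim. It was well above background in 3 of 8 controls and in all 16 lesion samples. The size of the *Arg1* change moved with the background correction, from 0.33 (normexp) to 1.95 (processed signals) at day 2 and from 0.28 to 1.86 at day 5, and it passed the threshold under all 39 alternatives. Within the 3 slides the *Arg1* change was 0.65 to 1.28 at day 2 and 0.29 to 1.32 at day 5. Time points and genotypes were not balanced over the slides. Slide 1 held only 1 day 2 sample, KO day 2 replicate 3, and the 0.65 rests on it.

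*Arg2* was measured well above background in every sample and rose further from day 2 to day 5. In WT it was at 6.54, 6.74, 6.26 and 5.82 in controls, at 7.50, 7.46, 7.36 and 7.34 at day 2, and at 7.95, 7.87, 8.05 and 7.76 at day 5. In KO mice *Arg2* was at 6.81, 6.57, 6.59 and 6.50 in controls, at 8.05, 7.41, 7.28 and 7.72 at day 2, and at 8.09, 7.79, 8.01 and 8.15 at day 5. All 8 day 2 and all 8 day 5 samples lay above all 8 controls, as they did for 3.78% and 5.58% of all genes. *Arg2* rose by 1.03 ± 0.12 at day 2, a 2.05-fold change (limma adjusted p = 2.34e-06), and by 1.48 ± 0.12 at day 5, a 2.79-fold change (adjusted p = 1.17e-08).

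The later *Arg2* rise, day 5 minus day 2, was 0.44 ± 0.12 (limma adjusted p = 0.0462). *Arg2* and *Sat1* were the 2 of 10 genes that passed this test, both in the higher direction, against 3.28% of all genes and 2.24% in that direction. The *Arg2* call was close to the threshold and was lost under 23 of the 39 alternatives, 20 of which left out 1 sample, while the difference was 0.33 to 0.52 over all 39. Without KO control replicate 4 it was 0.44 (limma adjusted p = 0.0550). In WT every day 5 sample lay above every day 2 sample, while in KO the groups overlapped.

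**Figure D2:**
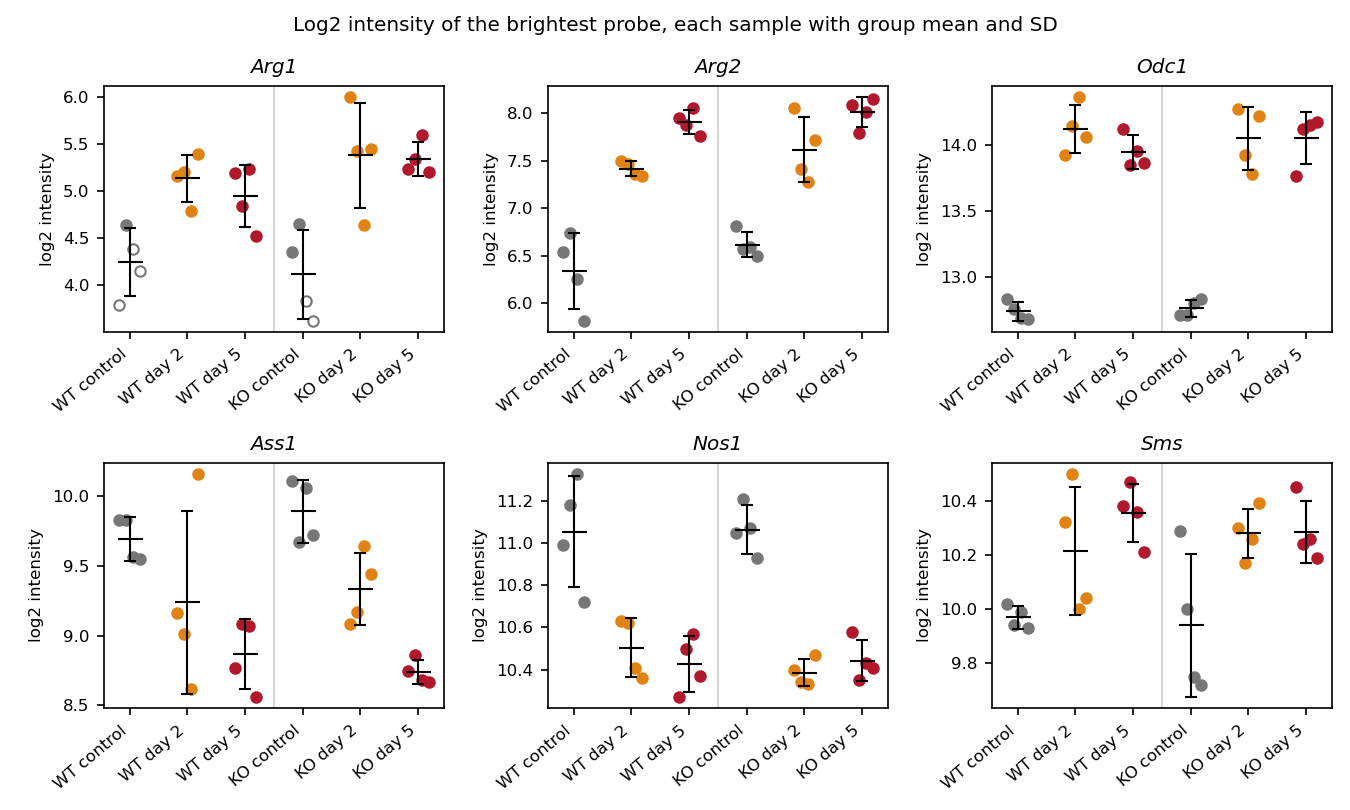
Log2 intensity of the brightest probe in each of the 24 samples for 6 genes, by group, with the group mean and SD (bars, n = 4) and open circles where the probe was not well above background. *Odc1* and *Arg2* lesion samples all lie above the controls of their genotype, and *Nos1* lesion samples all lie below them.

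*Ass1*, which encodes argininosuccinate synthase, fell after the lesion. It was measured by 2 probes that share 20 bases (capitals), so they are not independent of each other. In mm9 the brighter one is at chr2:31375899-31375957 and reaches just past the end of the coding sequence, and the other one crosses an exon junction and spans chr2:31374279-31375918.
*Ass1* brighter probe: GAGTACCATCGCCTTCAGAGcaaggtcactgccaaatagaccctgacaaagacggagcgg
*Ass1* second probe: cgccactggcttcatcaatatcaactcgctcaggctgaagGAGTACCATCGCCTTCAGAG

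In WT *Ass1* was at 9.83, 9.83, 9.56 and 9.55 in controls, at 9.16, 9.01, 8.62 and 10.16 at day 2, and at 8.77, 9.08, 9.07 and 8.56 at day 5. *Ass1* in KO mice was at 10.11, 9.67, 10.06 and 9.72 in controls, at 9.08, 9.17, 9.64 and 9.44 at day 2, and at 8.75, 8.86, 8.68 and 8.67 at day 5. All 8 day 5 samples lay below all 8 controls, as for 6.13% of all genes, and at day 2 one WT sample, replicate 4, lay above every control. *Ass1* fell by 0.51 ± 0.16 at day 2 and by 0.99 ± 0.16 at day 5, to 0.505 times the control level (limma adjusted p = 0.0280 and 1.06e-04). The second probe gave -0.54 ± 0.18 and -1.01 ± 0.18 (limma adjusted p = 0.0388 and 2.98e-04).

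Without WT day 2 replicate 4 the *Ass1* day 2 change was -0.66 (limma adjusted p = 3.14e-04). That call was lost under 10 of the 39 alternatives, with a weakest change of -0.40 without WT day 2 replicate 3 (limma adjusted p = 0.0629). The other samples whose omission ended the call, at -0.49 to -0.47, were WT control replicates 1 and 2, KO control replicates 1 and 3, WT day 2 replicate 2 and KO day 2 replicates 1 and 2. With only controls from arrays with controls in both channels the day 2 change was -0.49 and did not pass either (limma adjusted p = 0.146). Nor did it pass with array as a random block in the fit (-0.42, limma adjusted p = 0.0663). Day 5 minus day 2 was -0.48 ± 0.16 and did not pass (limma adjusted p = 0.125), but did without WT day 2 replicate 3 (-0.58, adjusted p = 0.0348). Within the 3 slides *Ass1* changed by -0.52 to -0.36 at day 2 and by -1.18 to -0.77 at day 5. The -0.36 rests on the 1 day 2 sample of slide 1.

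*Nos1*, the neuronal nitric oxide synthase, was also lower after the lesion. In WT it was at 10.99, 11.18, 11.33 and 10.72 in controls, at 10.63, 10.62, 10.41 and 10.36 at day 2, and at 10.27, 10.50, 10.57 and 10.37 at day 5. In KO mice *Nos1* was at 11.05, 11.21, 11.07 and 10.93 in controls, at 10.40, 10.34, 10.33 and 10.47 at day 2, and at 10.58, 10.35, 10.43 and 10.41 at day 5. All 16 lesion samples lay below all 8 controls, which held for 2.77% of all genes at day 2 and for 6.13% at day 5. *Nos1* fell by 0.62 ± 0.08 and by 0.63 ± 0.08 at the 2 days (limma adjusted p = 9.72e-06 and 6.22e-06), and day 5 minus day 2 was -0.01 ± 0.08 with a 95% interval of -0.17 to 0.16.

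The second *Nos1* probe was dim, with 23 of 24 samples well above background. It gave -0.32 ± 0.12 at day 2, which did not pass, and -0.46 ± 0.12 at day 5, which passed (limma adjusted p = 0.0610 and 0.00745). The changes of the 2 *Nos1* probes differed by 0.30 in size at day 2, which did not pass an exact two-sided permutation test after adjustment over 14 probe pair comparisons (adjusted p = 0.168).

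*Odc1* encodes ornithine decarboxylase, the rate-limiting enzyme that turns ornithine into putrescine. With the Edwards correction it had the highest rise of the 10 genes at day 2. With processed signals the dim *Arg1* rose by 1.95, above the 1.40 that *Odc1* reached at most under any alternative. In WT *Odc1* was at 12.83, 12.76, 12.69 and 12.68 in controls, at 13.92, 14.14, 14.36 and 14.06 at day 2, and at 14.12, 13.85, 13.95 and 13.86 at day 5. In KO mice *Odc1* was at 12.71, 12.71, 12.80 and 12.83 in controls, at 14.27, 13.92, 13.78 and 14.22 at day 2, and at 13.76, 14.12, 14.15 and 14.17 at day 5. The 8 controls spanned only 12.68 to 12.83, and the lowest lesion sample was at 13.76, so that the groups were far apart. All lesion samples lay above all controls for 3.78% of all genes at day 2 and 5.58% at day 5. *Odc1* rose 2.52-fold by day 2 (1.33 ± 0.08) and 2.37-fold by day 5 (1.25 ± 0.08), for limma adjusted p of 4.48e-10 and 8.14e-10. Day 5 minus day 2 was -0.08 ± 0.08 (95% interval -0.26 to 0.09).

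A second *Odc1* probe in the coding sequence, at chr12:17554799-17554858 in mm9, gave 1.34 ± 0.11 and 1.17 ± 0.11 (limma adjusted p = 1.81e-08 and 8.94e-08). It is shown here because it reports the same rise from another place in the transcript, with no base in capitals.
*Odc1* second probe: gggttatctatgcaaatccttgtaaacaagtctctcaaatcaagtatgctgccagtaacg

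The second *Odc1* probe had no overlap between lesion and control samples either, with controls at 7.65 to 7.88 and lesion samples at 8.56 to 9.49. By the brightest probe this held for 3.78% of all genes at day 2 and 5.58% at day 5. Across the 39 alternatives the *Odc1* change was 1.29 to 1.40 at day 2 and 1.21 to 1.30 at day 5, a narrower range than that of *Arg1* (0.33 to 1.95) or *Arg2* (0.67 to 1.15) at day 2. Within slides *Odc1* changed by 1.00 to 1.40 at day 2 and by 1.16 to 1.35 at day 5. The 1.00 rests on the 1 day 2 sample of slide 1.

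*Oaz1* encodes antizyme, the inhibitor that targets ornithine decarboxylase for degradation and that polyamines induce by a frameshift during translation, a step that arrays do not measure. Over all 8 controls it was between 13.75 and 13.97, at day 2 between 13.53 and 13.80, and at day 5 between 13.63 and 14.00. The groups overlapped over both genotypes, and *Oaz1* gave -0.16 ± 0.06 at day 2 and -0.05 ± 0.06 at day 5, for limma adjusted p of 0.0715 and 0.683. In WT every day 2 sample lay below every control, by a gap of 0.02, while in KO they overlapped. The 95% interval of the day 2 change was -0.28 to -0.03, and the day 2 value passed the threshold under 4 of the 39 alternatives. The second *Oaz1* probe gave -0.17 ± 0.07 and -0.07 ± 0.07.

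*Amd1* encodes S-adenosylmethionine decarboxylase, which supplies the aminopropyl groups. It was at 10.86 to 11.16 in controls, 10.77 to 10.98 at day 2 and 10.70 to 11.14 at day 5. *Amd1* gave -0.12 ± 0.07 and -0.14 ± 0.07 (limma adjusted p = 0.236 and 0.147), with 95% intervals of -0.26 to 0.02 and -0.28 to 0. In WT every lesion sample lay below every control, by a gap of 0.04 at day 2 and 0.03 at day 5, while in KO they overlapped. The difference between the genotypes' *Amd1* responses was 0.09 ± 0.13 and 0.06 ± 0.13 and did not pass. Without KO day 5 replicate 1, whose *Amd1* level of 11.14 lay above the 10.72 to 10.78 of the other KO day 5 samples, the day 5 change was -0.19 and passed (limma adjusted p = 0.0195). The paralog *Amd2* is also on the array, and whether these probes tell the pair apart was not tested.

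*Srm*, spermidine synthase, was measured by 1 probe at 10.58 to 11.17 in controls, 10.83 to 11.36 at day 2 and 10.99 to 11.20 at day 5. The groups overlapped, and *Srm* gave 0.21 ± 0.08 and 0.14 ± 0.08 (limma adjusted p = 0.0885 and 0.299). The 95% intervals, 0.03 to 0.39 and -0.04 to 0.32, leave out a change of the size seen for *Odc1*. The day 2 change of *Srm* passed with processed signals (0.23, limma adjusted p = 0.0282) and without KO day 2 replicate 3 (0.26, adjusted p = 0.0198).

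*Sms*, spermine synthase, gave different answers on its 2 probes. On the brighter probe WT was at 10.02, 9.94, 9.99 and 9.93 in controls, at 10.32, 10.50, 10 and 10.04 at day 2, and at 10.38, 10.47, 10.36 and 10.21 at day 5. On this probe KO samples were at 10.29, 10, 9.75 and 9.72 in controls, at 10.30, 10.17, 10.26 and 10.39 at day 2, and at 10.45, 10.24, 10.26 and 10.19 at day 5. Lesion samples were higher than most controls, with overlap in every group except WT day 5. The brighter *Sms* probe gave 0.30 ± 0.09 and then 0.37 ± 0.09 (limma adjusted p = 0.0174 and 0.00352).

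The second *Sms* probe, in all 24 samples well above background too, was at 9.83 to 10.15 in controls, 9.56 to 10.15 at day 2 and 9.72 to 10.08 at day 5. It gave -0.20 ± 0.08 and -0.11 ± 0.08 (limma adjusted p = 0.102 and 0.419). The probes start at bases 1497 and 3091 of the same *Sms* transcript in the array annotation. Their changes differed by 0.50 at day 2 and 0.48 at day 5 (exact two-sided permutation test, n = 8 against 8, p = 1.55e-04 and 3.11e-04, adjusted p = 0.00217 and 0.00218 over 14 comparisons), the first being the smallest p this design can give. *Sms* was the 1 gene of 7 with 2 probes for which such a difference passed after adjustment. With the probes averaged, *Sms* changed by 0.05 and 0.13 and did not pass at either day (limma adjusted p = 0.730 and 0.281), so a rise of *Sms* as a whole is not shown.

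*Sat1* encodes spermidine/spermine acetyltransferase, the enzyme that marks polyamines for breakdown and export. In WT it was at 9.52, 9.60, 9.35 and 9.65 in controls, at 9.09, 9.34, 9.50 and 9.30 at day 2, and at 9.83, 9.72, 9.38 and 9.76 at day 5. In KO mice *Sat1* was at 9.22, 9.20, 9.40 and 9.48 in controls, at 9.53, 9.41, 9.02 and 9.24 at day 2, and at 9.66, 9.67, 9.58 and 9.77 at day 5. Day 5 samples lay above all controls of their genotype in KO, and 3 of 4 did in WT. *Sat1* gave -0.12 ± 0.09 at day 2 and rose by 0.25 ± 0.09 by day 5, for limma adjusted p of 0.360 and 0.0459.

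Day 5 minus day 2 was 0.37 ± 0.09 for *Sat1* (limma adjusted p = 0.0200), and this call was kept under 37 of the 39 alternatives. It was lost without WT day 2 replicate 1 (0.33, limma adjusted p = 0.0506) and without WT day 5 replicate 1 (0.34, adjusted p = 0.0521). The second *Sat1* probe gave 0.25 ± 0.10 for day 5 minus day 2 and did not pass (limma adjusted p = 0.206). The rise of *Sat1* at day 5 over control was lost under 20 of the 39 alternatives, 15 of which left out 1 sample, while the change stayed between 0.15 and 0.30, and the second probe gave 0.06 ± 0.10 (limma adjusted p = 0.777). With only controls from arrays with controls in both channels it was 0.30 and did not pass (limma adjusted p = 0.0794).

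Whether the deletion of *Nfil3* changed any of these genes was tested in control DRGs and at both days. None of the 10 genes differed between KO and WT (limma F test, 0 of 10 at an adjusted p of 0.05 and 0 of 10 at an unadjusted p of 0.05, smallest p 0.247), against 0.0073% of all genes at the adjusted and 2.24% at the unadjusted p. In the single comparisons the count was also 0 in controls, at day 2 and at day 5, against 0%, 0.0146% and 0.0109% of all genes. The largest difference was that of *Arg1* at day 5, 0.40 ± 0.26 higher in KO, with a 95% interval of -0.15 to 0.94. For *Odc1* the differences were 0.02, -0.07 and 0.11 in control, day 2 and day 5, and the intervals reached from -0.32 to 0.35. For *Nos1* they were 0.01, -0.12 and 0.02, with intervals from -0.35 to 0.25. No gene passed the interaction of time and genotype either (limma F test, 0 of 10 and 0% of all genes, smallest unadjusted p of the 10 genes 0.376, that of *Arg1*). The intervals still allow differences of up to 0.94 for *Arg1*, 0.63 for *Arg2* and 0.67 for *Ass1*.

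**Figure D3:**
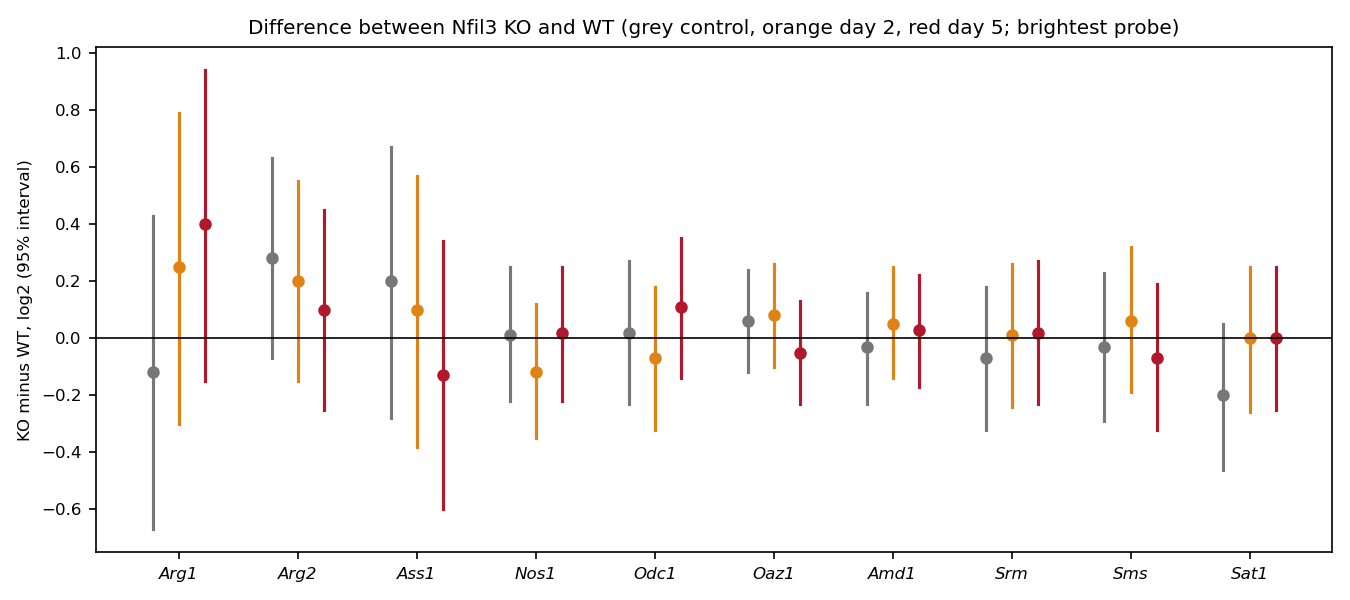
KO minus WT (log2) for the brightest probe of each gene in control (grey), at day 2 (orange) and at day 5 (red), with 95% intervals of the limma fit. Every interval includes 0, and those of *Arg1*, up to 0.94, are the widest.

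Within WT, 4 genes were called at day 2 and 5 at day 5, against 11% and 13.9% of all genes, and within KO 4 and 5, against 11.8% and 12.7%. *Arg2*, *Odc1* and *Nos1* passed in both genotypes at both days. *Arg2* gave 1.07 ± 0.17 in WT and 1.00 ± 0.17 in KO at day 2, and 1.57 ± 0.17 and 1.39 ± 0.17 at day 5. *Ass1* passed at day 5 in WT (-0.82 ± 0.23, limma adjusted p = 0.0188) and in KO (-1.15 ± 0.23, adjusted p = 0.00179), and at day 2 in neither. The equal counts at day 5 hold different genes. *Arg1* passed then in KO only. *Sms* passed in WT only (0.38 ± 0.12, limma adjusted p = 0.0426, against 0.35 ± 0.12 and 0.0747 in KO), and its second probe gave -0.04 ± 0.12 in WT. Without KO control replicate 4 the counts were 6 at day 2 and 7 at day 5 over both genotypes and 4 and 5 within KO. The changes from control were then 1.00 and 0.89 for *Arg1*, 1.01 and 1.46 for *Arg2*, 1.34 and 1.26 for *Odc1*, -0.54 and -1.01 for *Ass1*, -0.64 and -0.65 for *Nos1* and 0.26 and 0.33 for *Sms* at day 2 and day 5, and 0.27 for *Sat1* at day 5, and each of these passed. With only those controls whose array carried controls in both channels, the counts were 5 and 6, *Ass1* at day 2 and *Sat1* at day 5 being lost, and WT day 5 fell from 5 to 3.

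The promoter table from RefSeq (GRCm38.p6) held 8 start sites of 7 of the 10 genes and gave none for *Arg1*, *Arg2* and *Srm*. The 250 bases before each start were searched on both strands for the NFIL3 palindrome TTACGTAA and its variant TTATGTAA, the CREB site TGACGTCA and the AP-1 site TGAGTCA, and these letters were in none of the 8 windows. They occur in 0.113%, 0.819%, 1.55% and 4.46% of all 32851 promoters of the table. The GC box GGGCGG was in 5 of the 8 windows (*Amd1*, *Ass1*, *Odc1*, *Sat1* and *Sms*, 32.7% of all promoters) and the E-box CACGTG in 2 (*Ass1* and *Sms*, 6.02% of all promoters). The windows of *Odc1*, at chr12:17544623-17544872, and *Ass1*, at chr2:31470020-31470269, both on the plus strand, are shown because these genes moved in opposite directions, with GC boxes and the E-box in capitals.
*Odc1* promoter: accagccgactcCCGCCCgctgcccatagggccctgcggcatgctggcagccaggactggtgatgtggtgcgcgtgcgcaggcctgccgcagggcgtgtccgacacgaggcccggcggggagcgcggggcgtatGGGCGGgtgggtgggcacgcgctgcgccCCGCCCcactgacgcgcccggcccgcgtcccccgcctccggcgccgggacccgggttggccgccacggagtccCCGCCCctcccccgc
*Ass1* promoter: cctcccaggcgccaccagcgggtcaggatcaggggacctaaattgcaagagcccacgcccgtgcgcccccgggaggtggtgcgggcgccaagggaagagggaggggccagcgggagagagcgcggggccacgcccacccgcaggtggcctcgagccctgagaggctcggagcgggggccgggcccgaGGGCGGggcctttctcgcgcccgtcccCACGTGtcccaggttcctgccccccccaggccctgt

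The *Odc1* window held 4 GC boxes and no E-box, and the *Ass1* window held 1 of each. These matches describe the letters of the windows only.

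Around the 10 genes, 48 further genes of arginine, proline, polyamine, methionine salvage and hypusine metabolism were listed, of which 46 were found by name. The lesion changed 23 of the 46 (limma F test), against 26.2% of all genes. At day 2, 13 were higher and 6 lower, and at day 5, 14 were higher and 8 lower, against 9.48% higher and 12.7% lower at day 2 and 10.2% and 13% at day 5 over all genes, while none differed between KO and WT (0 of 46). The median change of the 46 genes was 0.04 at day 2 and 0.03 at day 5.

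The 4 largest rises at day 5 among those called were of *Nags*, *Adc*, *Slc7a3* and *Pycr1*. *Nags*, which makes the N-acetylglutamate that activates the urea cycle's first enzyme in liver, was well above background in 0 of 8 controls and in all 16 lesion samples, at 3.13 to 4.61 in controls, 5.35 to 6.80 at day 2 and 5.39 to 5.99 at day 5. Control values below the lowest signal that counted as well above background in that sample were raised to it. The mean *Nags* level was then 4.6-fold higher at day 2 and 3.2-fold higher at day 5. These folds leave out the spread between samples, and how they move with the background correction was not tested. The changes in the fit were 2.26 ± 0.19 and 1.74 ± 0.19 (limma adjusted p = 3.87e-08 and 1.08e-06). *Cps1*, the gene of the enzyme that N-acetylglutamate activates, was well above background in 0 of 24 samples. *Adc*, the older name of *Azin2*, encodes an antizyme inhibitor, a relative of ornithine decarboxylase that binds antizyme. It was at 9 to 9.36 in controls, 9.54 to 9.98 at day 2 and 10.09 to 10.52 at day 5, with no overlap between the 3 conditions. Of all genes, 3.78% at day 2 and 5.58% at day 5 had every sample above every control. *Adc* rose by 0.71 ± 0.08 and 1.19 ± 0.08 (limma adjusted p = 1.65e-06 and 6.53e-10).

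*Slc7a3*, a transporter of cationic amino acids such as arginine, was at 8.01 to 8.29 in controls, 8.94 to 9.30 at day 2 and 8.99 to 9.22 at day 5. It rose by 0.97 ± 0.06 at both days (limma adjusted p = 4.48e-10 and 2.93e-10), again without overlap with the controls, as for 3.78% and 5.58% of all genes. *Pycr1*, which completes proline synthesis, rose by 0.85 ± 0.17 at day 5 (limma adjusted p = 8.03e-04) and gave -0.09 ± 0.17 at day 2 (adjusted p = 0.771). It was well above background in 5 of 8 controls, 4 of 8 day 2 and all 8 day 5 samples.

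The largest decreases at day 5 among those called were of *Gamt*, *Eif5a2* and *Mat2b*, followed at the same 2 decimals by *Slc25a2* and *Enoph1*. *Gamt*, which methylates guanidinoacetate to creatine, was at 11.67 to 11.97 in controls, 10.97 to 11.57 at day 2 and 10.83 to 11.14 at day 5. It fell by 0.51 ± 0.09 and by 0.83 ± 0.09 (limma adjusted p = 1.84e-04 and 3.60e-07), without overlap with the controls, as for 2.77% and 6.13% of all genes. *Eif5a2*, an isoform of the translation factor that carries the polyamine-derived residue hypusine, gave -0.41 ± 0.10 and -0.50 ± 0.10 (limma adjusted p = 0.00658 and 0.00114). *Mat2b*, the regulatory subunit of S-adenosylmethionine synthetase, gave -0.29 ± 0.08 and -0.47 ± 0.08 (limma adjusted p = 0.0131 and 1.83e-04). *Slc25a2*, a mitochondrial ornithine carrier, and *Enoph1*, an enzyme of methionine salvage, each gave -0.43 at day 5 (limma adjusted p = 0.0305 and 0.0193).

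By role, with the same shares of all genes as background and lists too short to be set against them, 2 of 3 regulators of ornithine decarboxylase were higher at both days, *Adc* and *Azin1*. *Azin1*, the other antizyme inhibitor, gave 0.95 ± 0.08 and 0.68 ± 0.08 (limma adjusted p = 3.89e-08 and 2.85e-06). Of 8 transporters, 3 were higher at day 2 and 4 at day 5, with 2 lower at day 5. Of 9 arginine and citrulline enzymes, 2 were higher (*Nags* and *Ddah1*) and 1 lower (*Gamt*) at each day. Of 3 genes of polyamine catabolism, *Smox*, spermine oxidase, was higher (0.50 ± 0.08 at both days, limma adjusted p = 6.75e-05 and 5.00e-05) and *Sat2* lower (-0.22 ± 0.06 and -0.29 ± 0.06, adjusted p = 0.0127 and 0.00152).

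**Figure D4:**
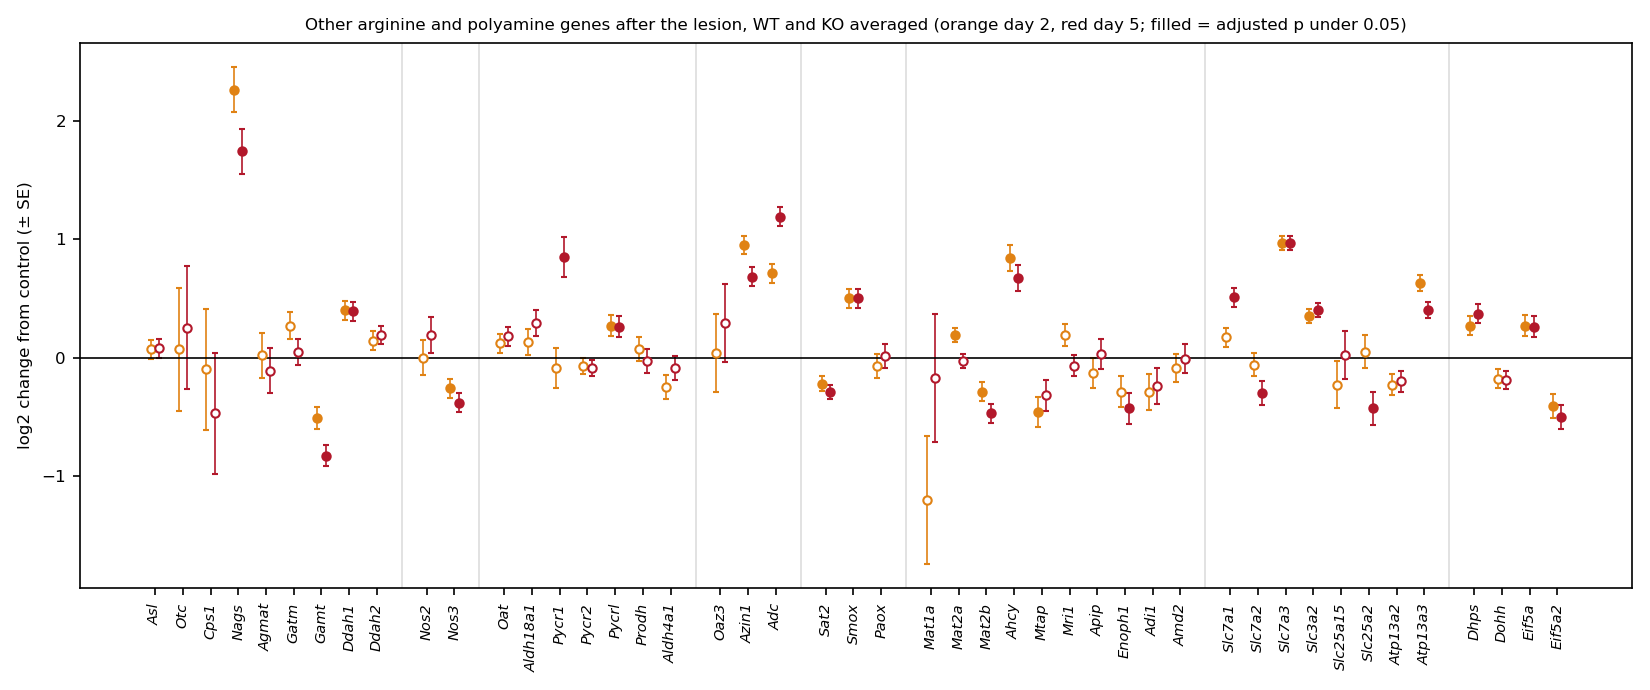
Log2 change from control at day 2 (orange) and day 5 (red) for the 46 further pathway genes, averaged over WT and KO, with bars of 1 SE and grey lines between roles. Filled symbols passed the limma threshold. *Nags*, *Adc*, *Slc7a3* and *Azin1* lie highest, and *Mat1a*, whose open day 2 symbol lies lowest, was not called.

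Levels of cell type markers moved with the same comparisons, and in such bulk samples fewer cells of a type and less RNA per cell cannot be told apart. All 10 macrophage markers were called in the lesion F test, 7 higher at day 2 and 10 at day 5, against 26.2%, 9.48% and 10.2% of all genes, and their summed linear intensity was 8170 to 13200 in controls, 7000 to 21900 at day 2 and 23500 to 35600 at day 5. *Arg1* is itself known from alternatively activated macrophages, of whose 5 other markers 4 were called in the same F test. Of these, *Mrc1* was higher by 1.10 ± 0.20 and 1.86 ± 0.20 and *Cd163* by 1.54 ± 0.25 at day 5 (limma adjusted p = 3.64e-04, 5.76e-07 and 1.06e-04), while *Retnla* gave -0.85 ± 0.31 and 0.14 ± 0.31. The summed intensity of the 5 was 752 to 1420 in controls, 777 to 3300 at day 2 and 1360 to 3380 at day 5. Of 8 neuron markers 6 were lower at day 2 and 5 at day 5, with 1 (*Tubb3*) higher, against 12.7% and 13% of all genes lower, and their summed intensity was 515000 to 649000 in controls, 425000 to 504000 at day 2 and 409000 to 520000 at day 5. The neuron and macrophage markers were well above background in all 24 samples, no marker of these lists was called between KO and WT, and the part of these cell types in the changes of the 10 genes was not tested.

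Genes whose pattern over the 24 samples was most like that of 4 of the 10 genes were picked by Pearson correlation among 17579 genes measured well above background in at least 12 samples. The points share arrays and the lesion itself, so these are descriptions. For *Odc1* they were *Gm15645*, *B230312A22Rik* and *Prss12*, each with r = 0.99. RefSeq lists *Gm15645* as a pseudogene, and whether its probe also binds *Odc1* transcripts was not tested. For *Arg1* they were *4930471M23Rik* (r = 0.91), *Sh3yl1* (r = 0.89) and *Gpr153* (r = 0.89). For *Nos1* they were *Mtap7d2* (r = 0.95), *2810432L12Rik* (r = 0.94) and *Nefh* (r = 0.94), and *Nefh*, the heavy neurofilament, is one of the neuron markers and fell by 0.72 and 0.81. For *Sat1* they were *Adam17* (r = 0.85), *Rftn2* (r = 0.85) and *Hist1h2ba* (r = 0.78).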

How the data were processed

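RNA of 24 samples was hybridized to 12 Agilent 2-colour arrays used as single-colour channels. The deposited files hold the authors' Agilent Feature Extraction output, a mean foreground and median background intensity per spot and channel, not normalized, with flags for outliers and signal over background. Following the study's methods, Edwards background correction, quantile normalization over the 24 channels and a log2 transform were run in limma 3.58.1 (R 4.3.3). Control spots and outlier spots were left out and spots of a probe were averaged, which left 417 probe values missing. Each group had its own mean in a linear model (lmFit, eBayes, with statmod 1.5.0 and the data.table package, version 1.17.8), and p-values were adjusted by Benjamini-Hochberg over 41174 probes. Dye is balanced within each group, and the number of arrays limits the precision.

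The 10 genes and all lists were chosen with earlier results of these data known. Named were all 10 genes, the 4 highest and 4 lowest day 5 changes among pathway genes called for the lesion (ties included), the 3 genes most like *Arg1*, *Odc1*, *Sat1* and *Nos1*, and markers. *Nfil3* and *Atf3* were checks. *Azin1*, *Smox*, *Sat2*, *Ddah1*, *Amd2*, *Mat1a*, *Cps1*, *Tubb3*, *Mrc1*, *Cd163* and *Retnla* were named after their values were seen. Oaz2 and Slc18b1 were not found by name. Of the other marker lists, 4 of 6 satellite glia, 1 of 6 Schwann cell, 1 of 5 endothelium and 1 of 4 fibroblast markers were called for the lesion, against 26.2% of all genes, and 0 of 3 each of T cell, neutrophil and muscle markers. Deviations of samples with the same replicate number and dye correlated at -0.06 to 0.21 (over 0.1 in 13 of 60 pairs). With the same dye and another number they correlated at -0.12 to 0.20 (over 0.1 in 13 of 60 pairs). No label ties the numbers to animals, so the samples were not treated as paired. Positions of probes come from the arrays' own annotation (mm9). Alternatives replaced the Edwards step by none, by normexp (offset 50) or by Agilent's processed signals at a common 75th percentile, or took the median foreground, loess and then Aquantile, all spots including outliers, a filter (29805 probes), probes averaged, dye, slide, replicate number, array or array partner in the fit, fewer controls, an intensity trend, and each of the 24 samples left out. The scripts were tested on simulated data.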

Additional observations from a re-analysis of the deposited data

Results flagged for a closer look

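In 5 of 102 groups of 4 samples (17 probes by 6 groups), 1 sample lay far from the other 3 by Dixon's test, and chance gives about 1 in 20. *Ass1* on its second probe was at 9.99 in WT day 2 replicate 4, against 8.46 to 8.72 in the other WT day 2 samples. *Odc1* was at 13.76 on the brighter probe in KO day 5 replicate 1, against 14.12 to 14.17, and at 8.88 on the second probe in WT day 2 replicate 1, against 9.26 to 9.33. *Amd1* was at 11.14 on the brighter probe in KO day 5 replicate 1, against 10.72 to 10.78. *Sms* was at 9.76 on its second probe in WT day 5 replicate 1, against 10.02 to 10.08.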

How the results depend on the processing

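Over 39 alternatives (15 settings and 24 left-out samples), 1094 of 1170 single-gene changes kept their direction and their side of the threshold, 57 lost the call, 8 gained one and 11 changed sign. The changes of *Arg1*, *Arg2*, *Odc1* and *Nos1* from control passed under all 39 at both days, and *Ass1* at day 5. Among the counts, that of genes called for day 5 minus day 2 fell from 2 to 1 with processed signals, median foreground and slide as a block, and was 0 to 2 with 1 sample left out (0 without WT day 5 replicate 1 or WT day 2 replicate 1). The count for WT day 5 fell from 5 to 3 with only controls from arrays with controls in both channels, and was 3 to 6 with 1 sample left out (3 without WT day 5 replicate 1, WT control replicate 1 or WT control replicate 2). The signs that changed belonged to values near 0. *Oaz1* at day 5 was 0 with processed signals, *Srm* day 5 minus day 2 was 0.01 with slide as a block, and *Nos1* day 5 minus day 2 was 0.01 with median foreground, 0 with loess and 0.01 with array as a random block, and 0 to 0.02 where 1 of 6 samples was left out, with -0.03 as the lowest value over all 24. The cause was not tested. With the replicate number as a block, 7 genes were called at day 2 in place of 6, *Oaz1* being the added one (-0.16, limma adjusted p = 0.0256), and 7 at day 5. Of the 24 samples 18 correlated best with a sample of their own number. Samples of the same number always carried the same dye. Deviations of same-dye pairs had a median correlation of 0.07 with the same number and 0.05 with another number, so pairing is not shown. Samples on the same array correlated at 0.266 in the fit with array as a random block, and p-values measure only the spread between these samples. Of the *Arg1* probe, 5 of 8 controls were not well above background, which limits how well the size of its change is known.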
